A study of Mus musculus with 18 samples.

Results

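The 4 regions described here hold the genes Tdg, Tet3, Mbd3 and Chd4 of the mouse, and the protein products of 2 of them, TDG and MBD3, were also immunoprecipitated. Members were taken as all peaks overlapping, by at least 1 bp, a fixed window on build mm39 around each gene: chr10:82455000-82500000 for Tdg (45 kb), chr6:83329000-83447000 for Tet3 (118 kb), chr10:80218000-80246000 for Mbd3 (28 kb) and chr6:125062000-125118000 for Chd4 (56 kb). Of 494083 peaks in 15 lists, 216 lay in these windows, with 101 at Tet3, 56 at Tdg, 35 at Mbd3 and 24 at Chd4. The windows are set by coordinates, with no threshold on a measured value. Chromatin immunoprecipitation sequencing (ChIP-seq) had been run on frozen cerebral cortex of 3 wild-type female C57BL/6J mice of 14 weeks, animals 5, 7 and 9, with no treatment in the labels. Each animal gave 1 library for each of 5 antibodies: H3K27ac, a mark of active promoters and enhancers; H3K4me1, found mainly at enhancers; PolII_S5P, RNA polymerase II phosphorylated on serine 5 and found near start sites; MBD3; and TDG. The 3 input samples were not analysed here, and the cortex was bulk tissue, so a site used in few cells and a weaker site used in many cannot be told apart.

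The 4 genes belong to 2 connected systems of chromatin control. TET3 is a dioxygenase that oxidises methylcytosine to hydroxymethylcytosine and further to formyl- and carboxylcytosine, and TDG is the glycosylase that cuts out these last forms, after which base excision repair restores an unmodified cytosine. Neurons are rich in hydroxymethylcytosine, which makes this pathway prominent in cortex. CHD4 is the ATPase that moves nucleosomes in the NuRD complex (nucleosome remodelling and deacetylase), and MBD3 is the subunit that joins its remodelling and deacetylase parts and, unlike the related MBD2, has little preference for methylated DNA. In the following, Mbd3 and Tdg in mixed case are the genes, and MBD3 and TDG in capitals are the proteins whose ChIP was sequenced.

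The sequences before the start of each gene are shown because CG dinucleotides, in capitals, are the bases on which TET and TDG enzymes mainly act. Each run is the 250 bases before a start, 5′ to 3′ on the strand of the gene, from RefSeq on GRCm38.p6.
Tdg: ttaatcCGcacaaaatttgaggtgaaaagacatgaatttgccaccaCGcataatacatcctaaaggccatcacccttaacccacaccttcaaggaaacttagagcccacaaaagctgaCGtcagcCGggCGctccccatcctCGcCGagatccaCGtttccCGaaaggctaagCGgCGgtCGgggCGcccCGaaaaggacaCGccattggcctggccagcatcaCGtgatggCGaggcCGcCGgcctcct
Tet3: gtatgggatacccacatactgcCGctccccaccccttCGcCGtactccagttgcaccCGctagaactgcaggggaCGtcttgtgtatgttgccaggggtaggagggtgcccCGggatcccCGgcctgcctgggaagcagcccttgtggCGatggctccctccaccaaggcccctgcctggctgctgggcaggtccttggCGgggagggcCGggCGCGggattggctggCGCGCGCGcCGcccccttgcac
Mbd3: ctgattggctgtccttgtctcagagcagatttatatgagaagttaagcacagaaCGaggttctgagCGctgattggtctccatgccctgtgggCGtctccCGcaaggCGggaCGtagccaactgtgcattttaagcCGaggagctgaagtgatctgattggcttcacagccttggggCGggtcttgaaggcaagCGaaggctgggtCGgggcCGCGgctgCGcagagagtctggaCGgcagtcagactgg
Chd4: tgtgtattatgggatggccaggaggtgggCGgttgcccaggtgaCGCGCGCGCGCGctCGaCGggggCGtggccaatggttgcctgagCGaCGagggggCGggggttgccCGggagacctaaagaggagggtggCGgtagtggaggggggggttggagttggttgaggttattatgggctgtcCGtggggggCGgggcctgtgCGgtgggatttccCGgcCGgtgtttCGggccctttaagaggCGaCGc
All 4 genes had an entry, and Chd4 had another that overlaps the one printed. The Chd4 run printed held 23 CG, Tdg 19, Tet3 17 and Mbd3 14, against a median of 6 over 32851 promoters of the same length. The shares of promoters with fewer CG were 86.7%, 80.3%, 76.5% and 70.6% in the same order, and the other Chd4 entry, with 12, stood above 66.5%. The letters CCAAT, searched on both strands, occurred 3 times before Mbd3 and once before Tdg, Tet3 and the printed Chd4 start, and 33.8% of all promoters held them. GGGCGG was found 3 times before Chd4 and once each before Tet3 and Mbd3 (32.7% of all promoters), and CACGTG was found before Tdg (6.02% of all promoters), where it also holds a CG. These matches describe letters, not bound sites. The peaks are on mm39 and these sequences on GRCm38.p6, so whether a peak covers them was not analysed here.

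Position along a window is given below as the distance from its lower end. In the RefSeq table of GRCm38.p6, Tdg and Chd4 lie on the forward strand, so transcription runs towards higher positions, and Mbd3 and Tet3 on the reverse strand. The next gene above Tdg, Glt8d2, overlaps it, and the gene below is 1190007I07Rik. Mbd3 lies between Mex3d and Uqcr11, Chd4 between Lpar5 and Nop2, and Tet3 between Bola3 and Dguok. The windows may therefore hold parts of neighbours, and no site was assigned to a promoter, exon or intron, since mm39 gene positions were not used here.

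Peaks of different antibodies and animals that overlap were merged into sites, which gave 59 sites in the 4 windows. Of these, 26 rested on a peak of a single library, and 22 of these were at Tet3. H3K27ac was present in all 3 animals at 18 sites, MBD3 at 12, H3K4me1 at 5 and PolII_S5P at 3, while TDG was present at 1 site in 1 animal.

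**Figure D1:**
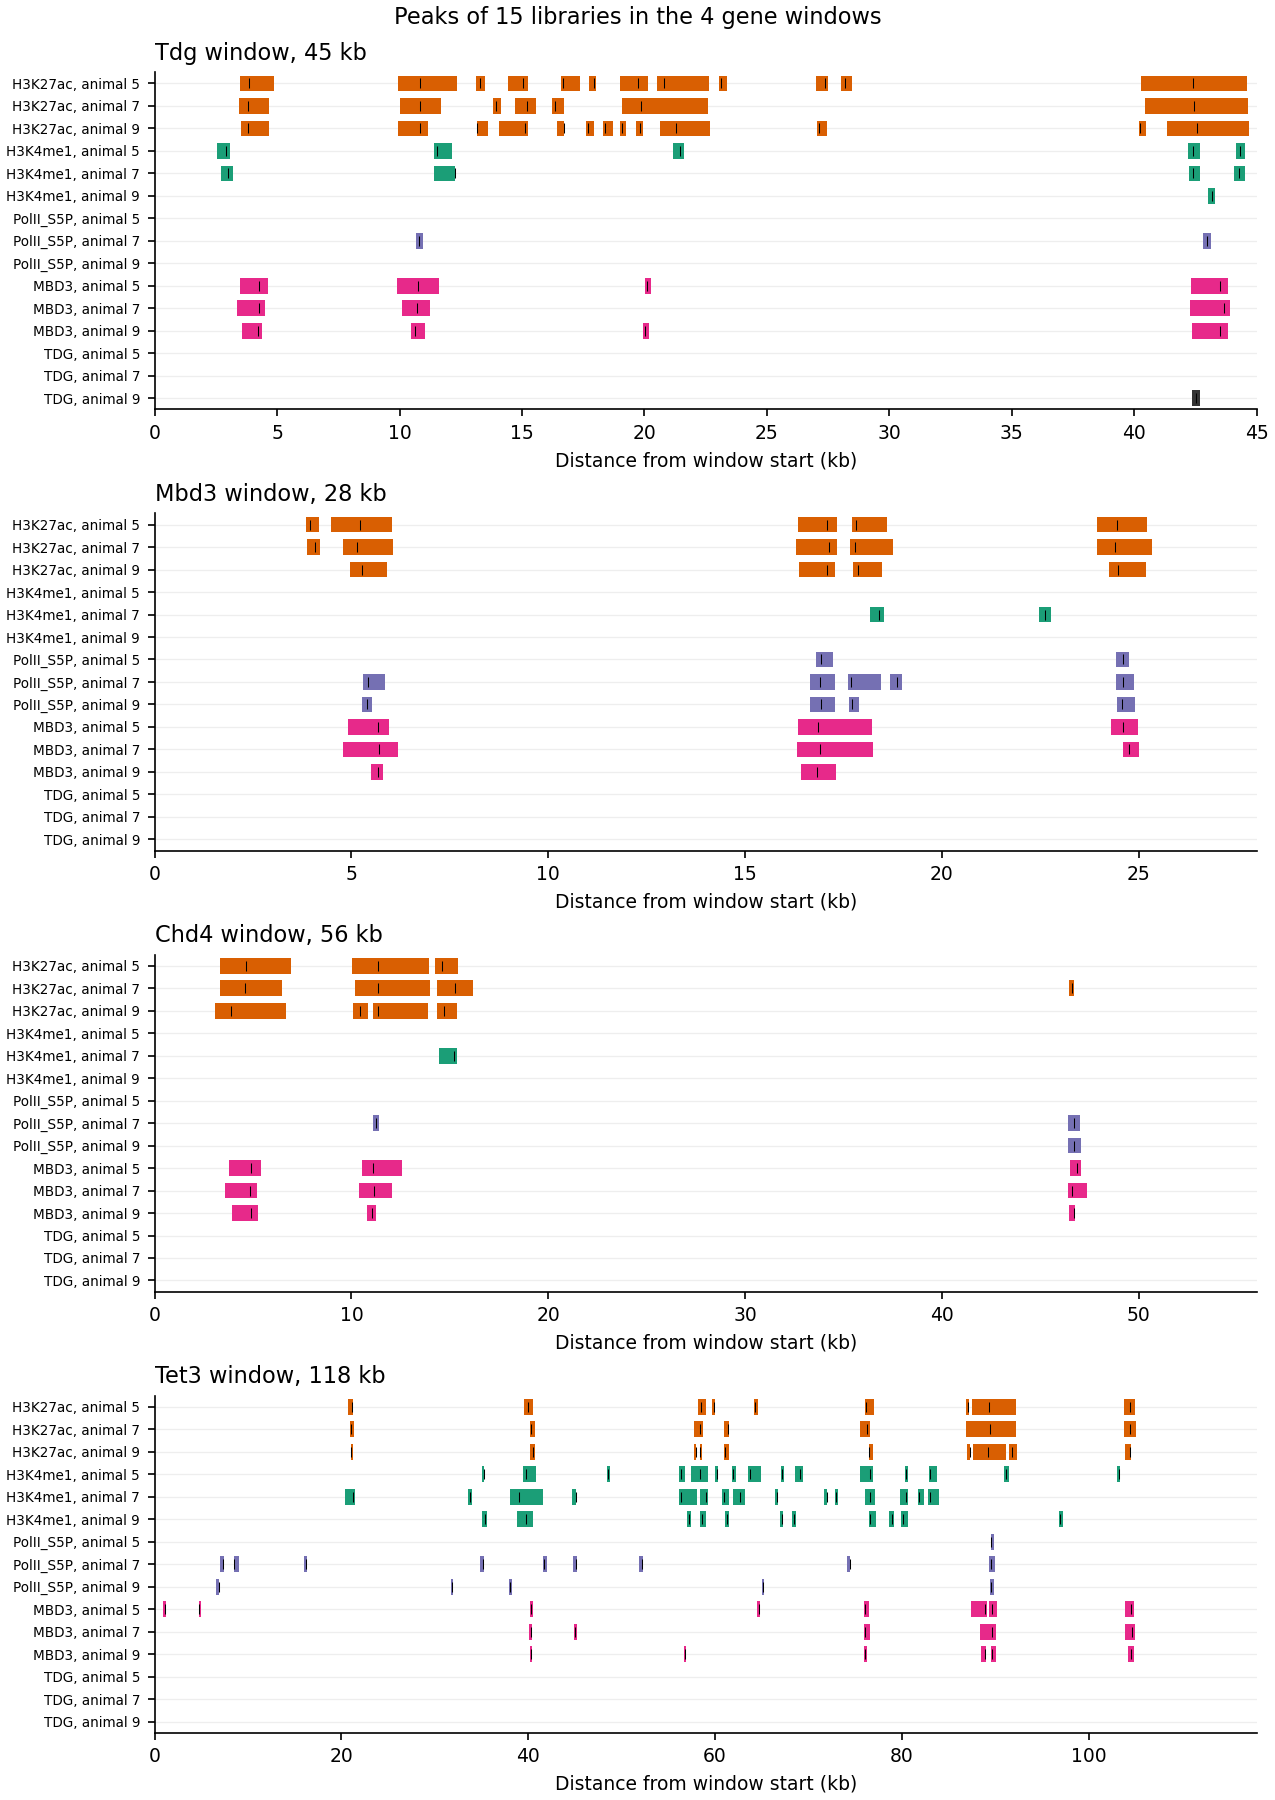
Peaks of the 15 libraries along the 4 windows, with distance from the window start in kb on the horizontal axis and 1 row per library; bars span the peaks and black ticks mark their summits. H3K27ac and MBD3 share sites at all 4 genes, H3K4me1 peaks crowd the middle of the Tet3 window, and the single TDG peak lies at 42.5 kb in the Tdg window.

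For strength, 2 measures from the authors' files are used: the fold enrichment of a peak over its local background, which is the authors' value, and its rank by fold in its own list, with rank 1 the strongest. The whole lists held 58679 to 68887 peaks for H3K27ac, 39326 to 62164 for MBD3, 22611 to 45711 for H3K4me1, 4409 to 19816 for PolII_S5P and 130 to 957 for TDG. Ranks in lists of unlike length show no change between animals. Counts of peaks are read against tiles, which are adjacent stretches of the same length as the window cut from all chromosomes between their outermost peaks, assembly gaps included, and against those tiles that held H3K27ac in all 3 animals (H3K27ac tiles). Such percentages describe where a gene stands and are not tests.

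The Tdg window was the one most covered by H3K27ac and held the single TDG peak. H3K27ac gave 12, 7 and 13 peaks in animals 5, 7 and 9, covering 33.1%, 27.3% and 25.9% of the window (28.8% ± 3.80, SD, n = 3). This was 12.4, 10.3 and 13.0 times the share of the genome that the same lists covered. All 3 animals were thus high, and 96.3% of H3K27ac tiles were less covered on average. MBD3 had 4, 3 and 4 peaks covering 10.2%, 8.66% and 6.84% (8.56% ± 1.68, SD, n = 3), and every MBD3 library lay below every H3K27ac library. H3K4me1 had 5, 4 and 1 peaks covering 5.81%, 4.83% and 0.669%, so animal 9 stood low. PolII_S5P had 2 peaks in animal 7 and none in the other two. Among 45-kb tiles, 31.1% had H3K27ac in all 3 animals, 32.3% MBD3, 13.5% H3K4me1 and 4.22% PolII_S5P, and 1.72% had TDG in at least 1 animal. Among H3K27ac tiles, MBD3 in all 3 animals was found in 78.9%, H3K4me1 in 39.1% and PolII_S5P in 11.4%. The presence of H3K27ac and MBD3 in all 3 animals at Tdg is thus shared with most tiles that carry H3K27ac. Its mean MBD3 coverage was above that of 94.9% of H3K27ac tiles.

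By fold, the strongest H3K27ac peak of the Tdg window lay at its upper end, at chr10:82495195-82499693 (40.2 to 44.7 kb). Its fold enrichments were 16.8, 15.7 and 15.3 in animals 5, 7 and 9, and it ranked 86 of 66989, 140 of 68887 and 98 of 58679. Its summits in the 3 animals fell within 151 bp of each other. Of H3K27ac tiles, 99.5%, 99.2% and 99.4% had a lower-ranking best peak, so this peak stood near the top of all 3 lists by fold. By −log10 q the strongest H3K27ac peak was instead the one at 9.91 kb described below, in all 3 animals, with values of 139.9, 138.8 and 66.1. The site at 40.2 to 44.7 kb held the strongest H3K4me1 peak of the window in each animal. Fold enrichments were 5.32, 4.17 and 2.74, with ranks of 127 of 33835, 2153 of 45711 and 17264 of 22611. The order of animals was the same as for coverage, with animal 9 far down its list. The H3K4me1 peak of animal 9, chr10:82497992-82498292, did not overlap those of animals 5 and 7, chr10:82497171-82497670 and chr10:82497221-82497661. The site also held MBD3 in all 3 animals, with fold enrichments of 13.0, 11.5 and 11.6. PolII_S5P was there in animal 7, with a fold of 5.21 and rank 4130 of 19816.

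Pooled over animals, the site at 40.2 to 44.7 kb, 4499 bp wide, was the only one of the 59 with peaks of all 5 antibodies. No single animal had all 5 there, since PolII_S5P was in animal 7 only and TDG in animal 9 only. The share of such sites over the genome was not computed. The TDG peak of the site, chr10:82497365-82497656, came from animal 9, had a fold enrichment of 5.43 and ranked 217 of 957. The TDG lists of animals 5 and 7, with 130 and 256 peaks, held none in the window, so the peak has no replicate. Its summit lay 44 bp below the H3K27ac summit of the same animal, 1001 bp below the MBD3 summit and 680 bp below the H3K4me1 summit. In the Mbd3, Chd4 and Tet3 windows no TDG peak was found in any animal, and at lists this short that is the common state: 1.1%, 2.11% and 4.2% of tiles of their lengths had one in at least 1 animal.

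In animals 5 and 7, MBD3 at Tdg was strongest at 2 other sites in the lower part of the window. At chr10:82464914-82467333 (9.91 to 12.3 kb), the site with the best mean rank, MBD3 had fold enrichments of 16.6, 15.5 and 8.66 and ranked 1937 of 57622, 2269 of 62164 and 7509 of 39326. H3K27ac there had folds of 11.0, 12.1 and 6.14, with ranks of 1145, 587 and 6321 in its lists. Both antibodies were lowest in animal 9 at this site. PolII_S5P was present in animal 7, with a fold of 4.52 and a summit 44 bp below that of H3K27ac, and H3K4me1 in animals 5 and 7, with summits 709 and 1414 bp above it. At chr10:82458382-82459871 (3.38 to 4.87 kb), MBD3 had folds of 18.4, 14.9 and 6.77 and ranks of 1292, 2595 and 13442. H3K27ac at that site ranked 13909, 19701 and 36220, far further down its lists, and neither H3K4me1 nor PolII_S5P had a peak. H3K4me1 had a separate site just below it, at chr10:82457549-82458209 (2.55 to 3.21 kb), in animals 5 and 7. Its folds there were 3.34 and 3.81, with ranks of 10587 of 33835 and 4479 of 45711. Between 13.1 and 28.5 kb a chain of 9 sites carried H3K27ac, and 3 of these in all 3 animals, with MBD3 at 1 of them in 2 animals. No library had a peak between 28.5 and 40.2 kb.

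Tet3 was the gene with the most H3K4me1. That mark gave 15, 15 and 11 peaks in animals 5, 7 and 9, covering 9.56%, 12.5% and 5.83% of the 118 kb (9.31% ± 3.36, SD, n = 3), or 13.1, 10.7 and 11.6 times its share of the genome. H3K27ac gave 9, 7 and 10 peaks covering 8.47%, 8.41% and 6.29% (7.72% ± 1.25, SD, n = 3), or 3.17, 3.19 and 3.14 times its share. The 2 marks overlapped in percent covered (two-sided exact permutation p = 0.5). With 3 libraries against 3 this test cannot go below 0.1, so it cannot show the marks to be alike. At Tdg, Mbd3 and Chd4, by contrast, every H3K27ac library covered more than every H3K4me1 library. Relative to their share of the genome the 2 marks did not overlap at Tet3, with every H3K4me1 ratio above every H3K27ac ratio. H3K4me1 coverage at Tet3 was above that of 97.6% of H3K27ac tiles of 118 kb, and H3K27ac coverage above 81.8%. Of the 41 H3K4me1 peaks, 12 were left at −log10 q of at least 5 and 22 with the 3 lists cut to equal length. Their folds ran from 1.66 to 3.51 with a median of 2.69, and the best ranked 8244 of 33835, 16210 of 45711 and 10128 of 22611.

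MBD3 at Tet3 gave 8, 5 and 6 peaks covering 4.33%, 3.46% and 2.05%, and PolII_S5P gave 1, 9 and 5 peaks covering 0.251%, 3.25% and 1.31%. For both, the highest library covered more than 2 times as much as the lowest. In tiles this long, MBD3 was in all 3 animals in 52.1% and H3K27ac in 49%, so the presence of either at Tet3 is common. Mean MBD3 coverage at Tet3 was above that of 79.4% of H3K27ac tiles. H3K4me1 was in all 3 animals in 26.8% of tiles and PolII_S5P in 10.1%, and among H3K27ac tiles the shares were 52% for H3K4me1, 18.5% for PolII_S5P and 88.4% for MBD3. Among 2264 tiles with PolII_S5P in all 3 animals, 60.9% had H3K4me1 in all 3, and 94.7% were less covered by it than Tet3.

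The H3K27ac site with the best mean rank at Tet3, chr6:83415856-83421281 (86.9 to 92.3 kb), was 5426 bp wide, the widest of the 59. By fold it held the strongest H3K27ac peak in animals 5 and 7. In animal 9 the peak at 40.6 kb was stronger by fold, at 4.04 and rank 24045 of 58679. By −log10 q this site held the strongest H3K27ac peak in all 3 animals, with values of 88.3, 68.6 and 29.3. H3K27ac had folds of 7.72, 6.29 and 3.67 there, with ranks of 4795 of 66989, 9109 of 68887 and 29260 of 58679. MBD3 had folds of 9.58, 7.24 and 4.72, with ranks of 10740, 19231 and 25724. Both were weakest in animal 9. This was the site of the Tet3 window with PolII_S5P in all 3 animals, at folds of 2.82, 3.78 and 2.88. By fold the ranks were 3789 of 4409, 11964 of 19816 and 10755 of 12691, below the middle of each list. By −log10 q these were the strongest PolII_S5P peaks of the window in all 3 animals. Of their lists, 41.7%, 78.0% and 68.05% of peaks then stood lower. At this site the PolII_S5P summits lay 291, 127 and 309 bp above the H3K27ac summits, on the same side in all 3 animals. H3K4me1 touched it in animal 5 only, 1822 bp above the H3K27ac summit.

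Elsewhere in the Tet3 window H3K4me1 and H3K27ac met in all 3 animals at 3 sites. At chr6:83366993-83370529 (38.0 to 41.5 kb) H3K4me1 had folds of 2.73, 2.78 and 3.21 and H3K27ac 3.17, 2.98 and 4.04, and MBD3 was present in all 3 animals with folds of 6.32, 5.87 and 8.07. Here animal 9 was the highest for all 3 antibodies, the reverse of the site at 86.9 kb. The best mean rank of PolII_S5P at Tet3 was also here, from animal 9 only, with a fold of 4.63 and rank 3617 of 12691. At chr6:83404489-83406237 (75.5 to 77.2 kb) H3K4me1, H3K27ac and MBD3 were again present in all 3 animals, with MBD3 folds of 4.66, 4.44 and 5.04. At chr6:83385165-83388258 (56.2 to 59.3 kb) the 2 marks were present in all 3 animals and MBD3 in animal 9 only. Across the window 24 sites had an H3K4me1 peak in at least 1 animal, and 18 of them had no MBD3 peak in any animal. The share of H3K4me1 sites without MBD3 over the genome was not computed, so this count is not read as a trait of Tet3. The site at chr6:83408827-83409699 had H3K4me1 in all 3 animals and no other antibody, with folds of 3.36, 2.88 and 2.82. Over animals with a peak, the best mean rank of H3K4me1 was at chr6:83392502-83393899 (63.5 to 64.9 kb). It came from animal 5 only, with a fold of 3.36 and rank 10402 of 33835. In that animal the peak at 58.4 kb was stronger, with a fold of 3.51 and rank 8244. Among sites with H3K4me1 in all 3 animals, the one at 56.2 to 59.3 kb had the best mean rank, with folds of 3.51, 3.10 and 2.69. By fold, the strongest MBD3 peak was at a different site in each animal, at 89.7, 104.6 and 40.3 kb in animals 5, 7 and 9. By −log10 q it was at the site at 86.9 kb in all 3 animals, with values of 38.6, 33.9 and 11.8.

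The Mbd3 window was the one most covered by PolII_S5P. It had 2, 5 and 4 such peaks in animals 5, 7 and 9, covering 2.73%, 9.98% and 5.68% of the 28 kb, or 34.5, 25.4 and 25.1 times the share of the genome in the same lists. The relative values were close although the lists themselves ran from 4409 to 19816 peaks. H3K27ac had 5, 5 and 4 peaks covering 18.0%, 18.4% and 12.7% (16.3% ± 3.16, SD, n = 3). MBD3 had 3, 3 and 2 peaks covering 12.9%, 13.4% and 4.19% (10.2% ± 5.19, SD, n = 3). At its own gene MBD3 thus covered less than H3K27ac in each of the 3 animals, and least in animal 9. H3K4me1 had 2 peaks in animal 7 and none in animals 5 and 9, with a best rank of 43520 of 45711 at 18.4 kb.

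Of 28-kb tiles, 2.75% had PolII_S5P in all 3 animals as Mbd3 did, against 23.5% for H3K27ac, 23.7% for MBD3 and 9.38% for H3K4me1. Among H3K27ac tiles the shares were 9.49% for PolII_S5P, 73.5% for MBD3 and 34.5% for H3K4me1, and 98.6% had fewer PolII_S5P peaks. In having MBD3 in all 3 animals, Mbd3 was like most of these tiles, and in the number of PolII_S5P peaks it was near their upper end. In mean coverage Mbd3 stood above 83.6% of H3K27ac tiles for H3K27ac, 94.2% for MBD3 and 98.25% for PolII_S5P. Among 2601 tiles that held PolII_S5P in all 3 animals, 76.1% had MBD3 and 38.1% H3K4me1 in all 3.

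The central site of the Mbd3 window, chr10:80234283-80236971 (16.3 to 19.0 kb), held the best peaks of H3K27ac and MBD3. H3K27ac had folds of 9.86, 10.6 and 7.19 and ranks of 1888 of 66989, 1174 of 68887 and 3530 of 58679. MBD3 had folds of 14.7, 15.4 and 6.08 and ranks of 3035 of 57622, 2336 of 62164 and 16472 of 39326, so animals 5 and 7 were high and animal 9 in the middle of its list. PolII_S5P was present in all 3 animals with 1, 3 and 2 peaks and best folds of 2.60, 6.02 and 4.17. The MBD3 summit lay 211, 215 and 239 bp below the H3K27ac summit. The best PolII_S5P summit lay 147 bp below it in animal 5 and 582 and 643 bp above it in animals 7 and 9, where it belongs to another of the PolII_S5P peaks at the site.

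The strongest PolII_S5P site by mean rank was at the upper end, chr10:80241928-80243338 (23.9 to 25.3 kb). Its folds were 3.74, 5.98 and 4.32, with ranks of 2360 of 4409, 2485 of 19816 and 4524 of 12691, and the summits of the 3 animals fell within 24 bp. H3K27ac was present in all 3 animals, with folds of 7.42, 4.23 and 3.34, and MBD3 in animals 5 and 7, with folds of 5.76 and 5.33. By −log10 q the strongest PolII_S5P peak was at this site in animal 5, with a value of 11.7. In animals 7 and 9 it was at the central site, with values of 33.2 and 29.2. At the lower end, chr10:80222484-80224175 held MBD3 and H3K27ac throughout, and PolII_S5P in animals 7 and 9. All 3 of these sites thus had H3K27ac in every animal and PolII_S5P in at least 2 animals.

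Chd4 had the fewest sites, 4, and its H3K27ac coverage was close in the 3 animals. H3K27ac had 3, 4 and 4 peaks covering 15.6%, 16.1% and 14.6% of the 56 kb (15.4% ± 0.784, SD, n = 3), and MBD3 had 3 peaks in each animal covering 7.45%, 7.68% and 3.63% (6.25% ± 2.28, SD, n = 3). Every H3K27ac library lay above every MBD3 library. H3K27ac coverage was above that of 89.7% of H3K27ac tiles of this length and MBD3 coverage above 90.8%. H3K4me1 had 1 peak, in animal 7, at 15.2 kb, with rank 43094 of 45711. PolII_S5P had 0, 2 and 1 peaks. Of 56-kb tiles, 34.9% had H3K27ac in all 3 animals, 36.7% MBD3, 15.9% H3K4me1 and 5.17% PolII_S5P, and among H3K27ac tiles 81.5% had MBD3, 41.7% H3K4me1 and 12.6% PolII_S5P.

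H3K27ac and MBD3 shared 2 sites at Chd4 in all 3 animals. At chr6:125072025-125075992 (10.0 to 14.0 kb) H3K27ac had folds of 9.24, 10.1 and 5.33 and ranks of 2425 of 66989, 1455 of 68887 and 10430 of 58679. MBD3 there had folds of 11.1, 9.85 and 3.32 and ranks of 7157 of 57622, 9157 of 62164 and 36012 of 39326. Both were lowest in animal 9, where MBD3 was close to the bottom of its list. Over animals with a peak, PolII_S5P had its best mean rank of the window at this site, from animal 7 only, with a fold of 4.32 and rank 8012 of 19816. In that animal the PolII_S5P peak at 46.7 kb was stronger, with a fold of 4.58 and rank 7089. At chr6:125065070-125068938 (3.07 to 6.94 kb) H3K27ac had folds of 6.76, 6.35 and 3.97 and MBD3 10.5, 5.83 and 6.13. The adjoining site at 14.2 to 16.2 kb carried H3K27ac in all 3 animals and no MBD3.

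The upper part of the Chd4 window held a site with MBD3 and little H3K27ac. At chr6:125108379-125109366 (46.4 to 47.4 kb), with no peak of any library between it and 16.2 kb, MBD3 was present in all 3 animals and H3K27ac in animal 7 only. It was the 1 site of 12 with MBD3 in all 3 animals that did not also have H3K27ac in all 3. The MBD3 folds were 5.88, 4.05 and 2.41, with ranks of 29552 of 57622, 49251 of 62164 and 39168 of 39326, the last near the end of the list. PolII_S5P had its strongest Chd4 peaks here, in animals 7 and 9, with folds of 4.58 and 2.99 and summits 108 and 4 bp above the MBD3 summits.

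H3K27ac had the highest mean coverage at Tdg, Mbd3 and Chd4, and at Tet3 it overlapped H3K4me1. Mean H3K27ac coverage ran from 28.8% at Tdg through 16.3% at Mbd3 and 15.4% at Chd4 to 7.72% at Tet3, and the values of Mbd3 and Chd4 overlapped between animals. For MBD3 the order was Mbd3 (10.2%), Tdg (8.56%), Chd4 (6.25%) and Tet3 (3.28%), and each gene overlapped its neighbour in this order. For H3K4me1 it was Tet3 (9.31%), Tdg (3.77%), Mbd3 (0.802%) and Chd4 (0.546%), and Tet3 lay only just clear of Tdg, with a lowest library of 5.825% against a highest of 5.811%. Tdg, Mbd3 and Chd4 overlapped between animals. For PolII_S5P it was Mbd3 (6.13%), Tet3 (1.60%), Chd4 (0.932%) and Tdg (0.432%), and each again overlapped its neighbour. The windows differ in length and in the sequence around the gene they include, so percent covered was not tested between genes.

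**Figure D2:**
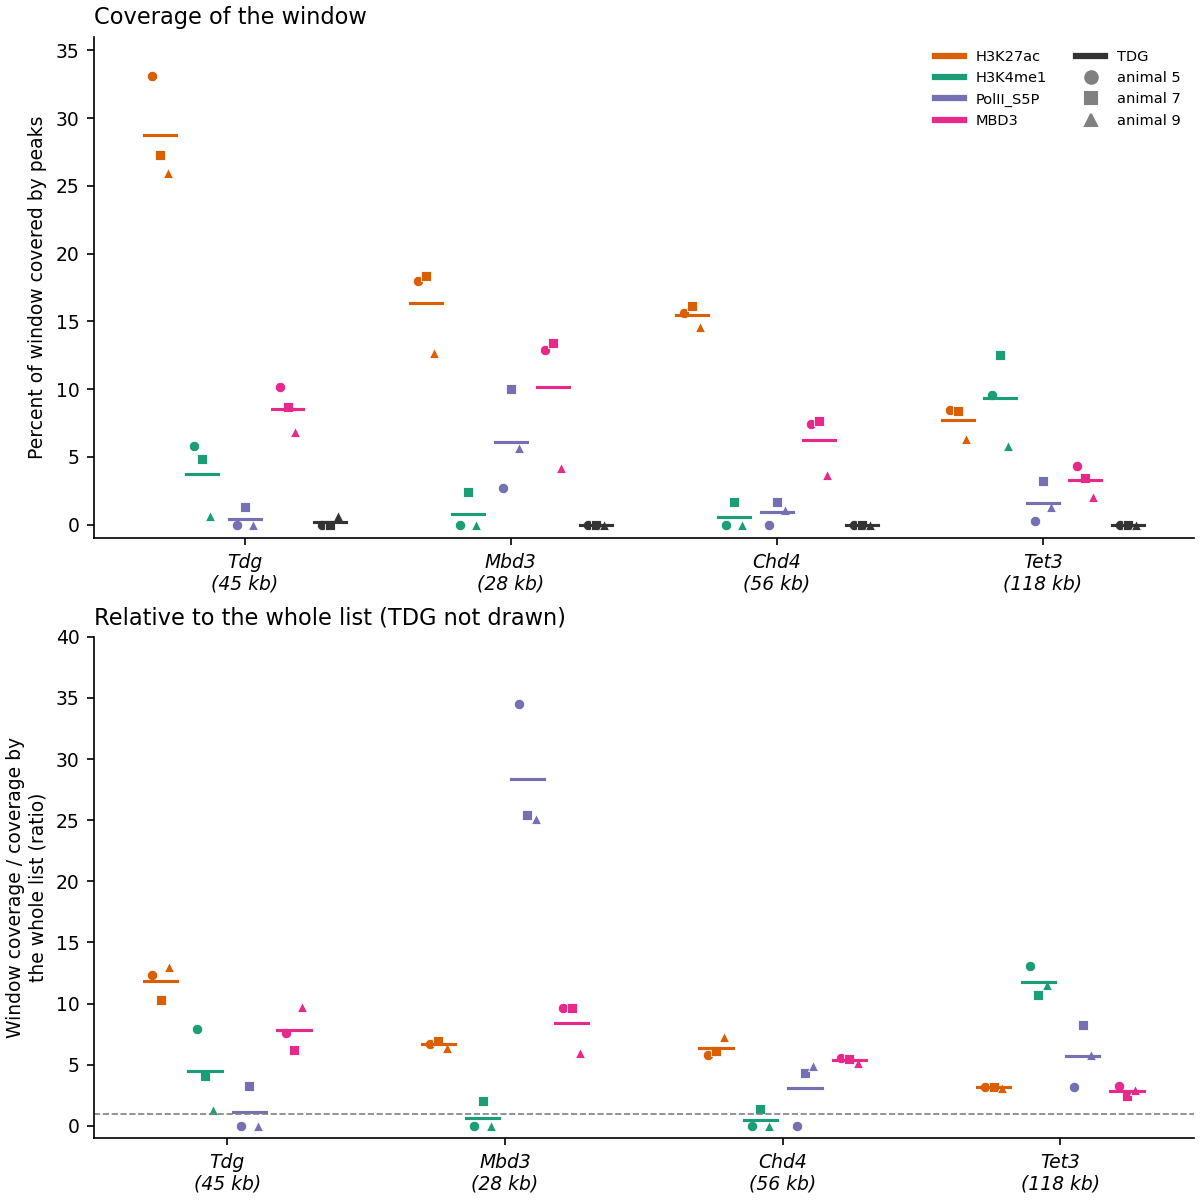
Upper panel, percent of each window covered by the peaks of each library; lower panel, the same as a ratio to the share of the genome covered by the whole list, with the dashed line at 1; points are animals and lines their means (n = 3). H3K27ac is highest at Tdg (28.8%), H3K4me1 at Tet3 (9.31%), and PolII_S5P at Mbd3 is 25.1 to 34.5 times its share of the genome.

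Percent covered differed between the 5 antibodies at each gene by more than the spread between animals, but it moves with how much each list covers: the H3K27ac lists covered 2.00% to 2.67% of the genome, the MBD3 lists 0.701% to 1.40% and the TDG lists 0.00153% to 0.0118%. Antibody accounted for a share of the variance over 15 libraries (eta squared) of 0.971 at Tdg, 0.972 at Chd4, 0.853 at Tet3 and 0.842 at Mbd3. One-sided permutation tests over the 15 libraries, adjusted by Benjamini-Hochberg over the 4 genes, gave p = 0.00016, 0.0002, 0.00064 and 0.00206 in the same order. Without animal 5, the adjusted permutation p was 0.0588 at both Mbd3 and Tet3, with eta squared of 0.818 and 0.808 over 10 libraries. The same test was therefore run on the ratio of window coverage to the share covered by the whole list, a scale chosen after seeing the data. Eta squared was then 0.958 at Mbd3, 0.936 at Tet3 and 0.855 at Chd4 (adjusted permutation p = 8e-05, 8e-05 and 0.0018). At Tdg it was 0.207 (adjusted permutation p = 0.811), where the ratio of 54.9 in the TDG library of animal 9 rests on its single peak. Over the 4 other antibodies it was 0.829 at Tdg, 0.949 at Mbd3, 0.790 at Chd4 and 0.904 at Tet3 (adjusted permutation p = 0.00411, 0.00096, 0.0113 and 0.00276).

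Each pair of antibodies, 3 libraries against 3, was then tested two-sided by exact permutation, which cannot go below p = 0.1. In 30 of 40 pairs all libraries of 1 antibody lay above all of the other, with an exact p of 0.1 and an adjusted p of 0.133, so no pair passed 0.05. Such separation was already the state of the whole lists. In share of the genome covered, only H3K4me1 (0.504% to 1.17%) and MBD3 (0.701% to 1.40%) overlapped, and all other pairs lay apart. The count is therefore not read as a trait of these genes. H3K27ac exceeded MBD3 without overlap at Tdg, Chd4 and Tet3 (exact p = 0.1 each), by 20.2, 9.19 and 4.44 percentage points. At Mbd3 the libraries overlapped between animals (6.17 points, exact p = 0.3), but paired by animal H3K27ac was higher in 3 of 3 animals at all 4 genes, with an exact sign-flip p of 0.25, the smallest that 3 pairs allow. As a ratio to the share of the whole list, H3K27ac and MBD3 lay closer. The mean ratios were 11.9 and 7.86 at Tdg, 6.41 and 5.41 at Chd4 (exact p = 0.1 each), 3.17 and 2.88 at Tet3 and 6.67 and 8.41 at Mbd3 (exact p = 0.4 each). Adjusted over the 4 genes these exact p were 0.2 and 0.4. At Mbd3 the direction thus turned, with H3K27ac higher in 1 of 3 animals, and at Tet3 it was higher in 2 of 3.

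The strongest H3K27ac peak stood highest at Tdg by fold, but at Mbd3 by q-value. The percentile of a peak, the percent of its list with a lower fold, was 99.8 to 99.9 at Tdg, 94.0 to 98.3 at Mbd3, 82.2 to 97.9 at Chd4 and 59.0 to 92.8 at Tet3. Ranked by −log10 q instead, the mean H3K27ac percentile was 99.7 at Mbd3, 99.1 at Tdg, 97.1 at Chd4 and 95.03 at Tet3. By fold, the MBD3 percentile was 90.8 to 97.8 at Tdg, 58.1 to 96.2 at Mbd3, 58.6 to 87.6 at Chd4 and 69.4 to 81.4 at Tet3. In animals 5, 7 and 9, the best MBD3 peak at Tdg stood above that of 93.8%, 89.6% and 85.0% of same-length H3K27ac tiles. The shares were 88.7%, 91.2% and 57.2% at Mbd3, 68.2%, 61.95% and 48.0% at Chd4 and 44.7%, 26.5% and 53.9% at Tet3. For H3K27ac they were 91.25%, 94.7% and 86.0% at Mbd3, 86.45%, 91.8% and 59.6% at Chd4 and 68.7%, 52.7% and 24.75% at Tet3. At Tet3 the best MBD3 peak was thus near the middle of such tiles or below it. Animal 9 had the lowest H3K27ac percentile at Mbd3, Chd4 and Tet3, and the lowest MBD3 percentile at Tdg, Mbd3 and Chd4. At Tet3, the longest window with the most peaks, the strongest peaks of PolII_S5P stood at 14.1 to 71.5 and those of H3K4me1 at 55.2 to 75.6.

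**Figure D3:**
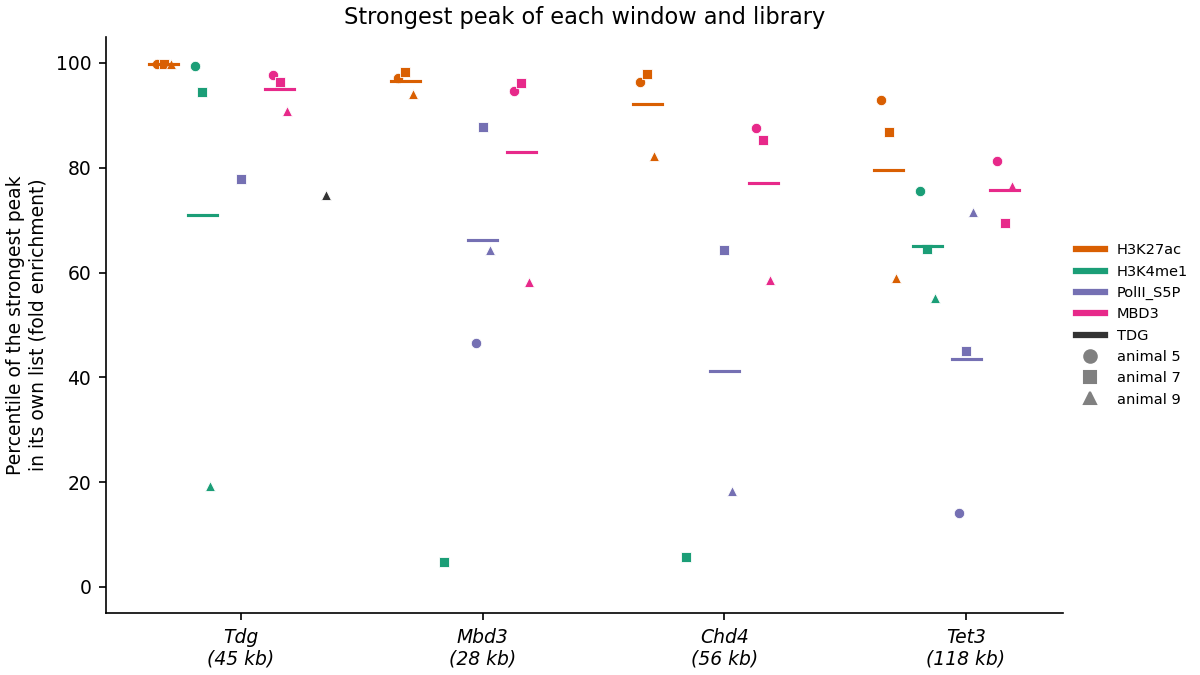
Percentile of the strongest peak of each window in its own list, by fold enrichment, for each antibody and animal; lines are means where at least 2 animals had a peak. H3K27ac at Tdg stands at 99.8 to 99.9 in all 3 animals, and at Tet3 it ranges from 59.0 to 92.8.

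MBD3 and H3K27ac met at the same sites at all 4 genes. Of 18 sites with H3K27ac in all 3 animals, 11 also had MBD3 in all 3: 4 at Tet3, 3 at Tdg and 2 each at Mbd3 and Chd4. Counted on H3K27ac regions alone, 11 of 19 regions in the windows (57.9%) had MBD3 in all 3 animals, against 50% of 36793 such regions in the genome. PolII_S5P in all 3 animals was at 3 of the 19 (15.8%) against 5.36%, and H3K4me1 at 4 of 19 (21.1%) against 16.9%. The MBD3 and H3K4me1 shares were near the genome's. Of the PolII_S5P regions 2 were at Mbd3 and 1 at Tet3, and Tdg and Chd4 had none.

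Although the sites were shared, the summits often were not. At the 11 shared sites the MBD3 summit lay 5 to 1243 bp from the H3K27ac summit of the same animal, with a median of 262 bp over 33 pairs, and at 9 sites it lay on the same side in all 3 animals. The same distances and sides over the H3K27ac regions of the genome were not computed. Whether they are particular to these genes was therefore not tested. The largest shift was at the Tdg site at 40.2 kb, where MBD3 lay 1096, 1243 and 957 bp above H3K27ac in animals 5, 7 and 9. At the Tdg site at 9.91 kb it lay 97, 103 and 198 bp below, and at the Tdg site at 3.38 kb 419, 447 and 401 bp above. These 3 Tdg sites thus differed from each other by more than the animals did. At Chd4 the site at 10.0 kb had MBD3 227, 204 and 300 bp below H3K27ac, and the site at 3.07 kb had it 247, 235 and 1036 bp above. The 2 sites where the side changed between animals were both at Tet3, at 38.0 and 86.9 kb. At the latter, animals 5 and 9 each had 2 MBD3 peaks, 1 on each side of the H3K27ac summit, and the stronger one was taken. The weaker MBD3 peak of animal 9 lay 395 bp above the H3K27ac summit, on the side of the 368 and 239 bp of animals 5 and 7, so the change of side there rests on which peak is taken. A summit is 1 position in a peak, and H3K27ac peaks in these windows were up to 5333 bp wide. The part of peak width in these distances was not tested.

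**Figure D4:**
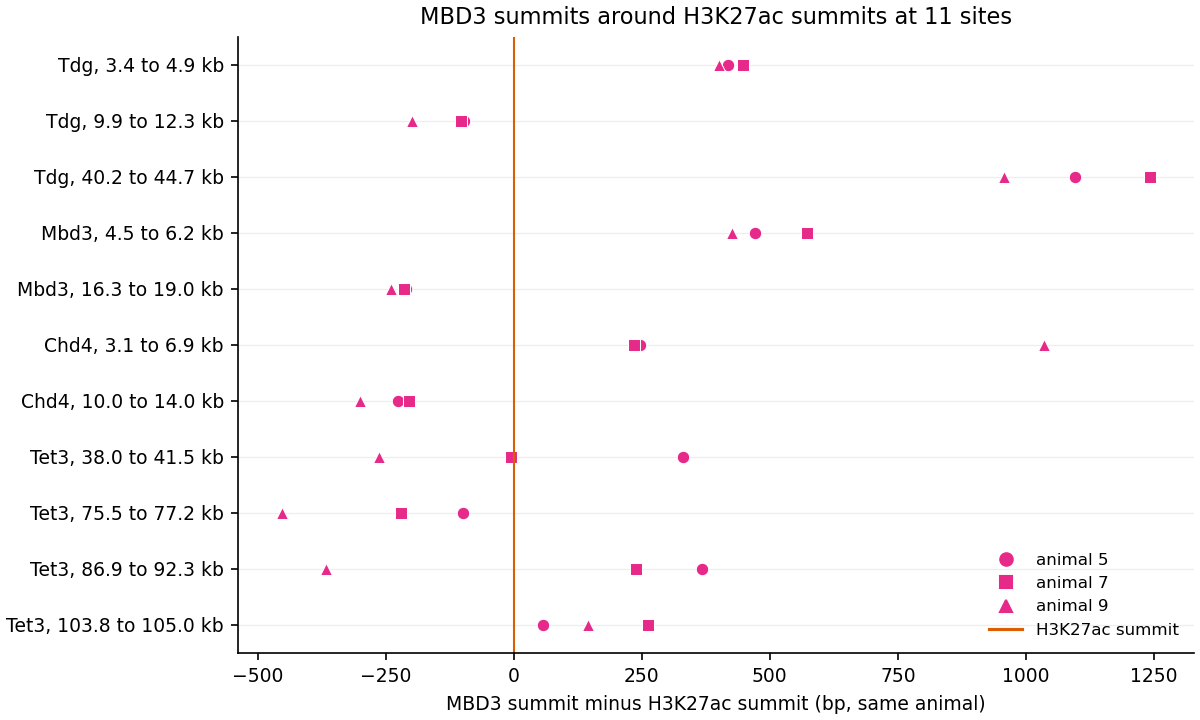
Distance in bp from the H3K27ac summit (line at 0) to the MBD3 summit of the same animal at the 11 sites with both in all 3 animals; points are animals, and positive values lie at higher coordinates. At 9 of 11 sites the 3 animals fall on the same side, with the widest offsets of 957 to 1243 bp at the Tdg site at 40.2 to 44.7 kb.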

How the data were processed

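Values came from 15 deposited peak lists in narrowPeak layout, 1 per library. The deposited columns, made by the authors, hold the fold enrichment of each peak (a ratio), its q-value and p-value on the −log10 scale, a whole-number score and another value, the distance in bp from peak start to summit. The submitters' processing notes list MACS2 2.2.7.1, Picard 2.18.29, SAMtools 1.16.1, Trim Galore 0.6.7, bcl2fastq 2.20 and builds mm39 and hg38, and the mouse lists were read as mm39. Which aligner and which control served is not given in the sources used here. Depth is unknown, so peak numbers cannot be told apart from depth or antibody efficiency. The MBD3 and TDG lists name unplaced contigs differently from the other lists, a processing difference that cannot be told apart from the antibody.

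Only peaks on X, Y and the 19 autosomes entered. Replicates are separate animals. Per the labels, libraries with 1 number share an animal, which pairs them. The genes, windows and tests were chosen with earlier results of these data known. All 4 genes were named with every library's value. In each window the site with the best mean rank of each antibody, over animals with a peak, and every TDG site were named. Overlap needed 1 bp. Percent covered was tested with 100000 permutations over 15 libraries, and antibody pairs by exact permutation, adjusted over 40 tests. The plan also named tiles with PolII_S5P in all 3 animals, which Tdg and Chd4 did not match, and H3K27ac tiles were added after seeing the data. Lists of other demethylation and NuRD genes, genes of like pattern and cell type markers needed mm39 gene positions and were not run, so the tissue label was not checked against markers. Placement of the windows was taken as given for the same reason. The permutation and overlap code was tested on simulated data. Alternatives covered the q-value, list length, window limits, merging, ranking by q, the ratio to list coverage, leaving out each animal and pairing by animal. Software was scipy 1.17.1, pandas 2.3.3, numpy 2.4.6 and matplotlib 3.10.9 under Python 3.11.15.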

Additional observations from a re-analysis of the deposited data

How the results depend on the processing

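With libraries paired by animal (replicate block, antibody labels permuted within animals), the adjusted permutation p for percent covered was 0.000773 at Tdg, Mbd3 and Tet3 and 0.00097 at Chd4, and the block changed no call; the paired exact sign-flip test cannot go below 0.25, so 0 of 40 antibody pairs passed with or without it. Leaving out each animal in turn gave eta squared of 0.965 to 0.988 at Tdg, 0.818 to 0.943 at Mbd3, 0.968 to 0.992 at Chd4 and 0.808 to 0.948 at Tet3, with calls at Mbd3 (0.818) and Tet3 (0.808) lost without animal 5, when 10 libraries remain. On the ratio to the share covered by the whole list, chosen after seeing the data, the call at Tdg was lost (eta squared 0.207, with or without the block) and the other 3 kept theirs; without TDG all 4 calls held, block included. Peaks in the windows fell from 216 to 128 at −log10 q of at least 5 and were 139 to 147 with each animal left out; the mean percentile of the strongest peaks was 73.3 by fold, 84.0 by −log10 q and 69.7 to 77.1 with each animal left out. Sites with H3K27ac and MBD3 in all animals numbered 11 of 18, 8 of 13 at the stricter q-value, 10 of 16 with lists of equal length and 11 to 12 with each animal left out; these 3 checks were also chosen after seeing the data. The TDG peak at Tdg was lost with lists of equal length and with the window narrowed by 10 kb, which removes the site at 40.2 kb. With the window widened by 10 kb at both ends, 2 TDG peaks were counted at Tdg. Depth is unknown, so absence of a peak, most of all in the short TDG lists, does not show absence of the protein.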
